A study of Mus musculus with 10 samples.

Results

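RNA-seq counts of 38 Hox genes were followed across 10 libraries of mouse intestinal organoids. The members were all genes of the table whose name is 1 of 38 listed Hox symbols, 38 of 47069 genes in all, with 10 in cluster A, 10 in cluster B, 9 in cluster C and 9 in cluster D. Organoids are miniature epithelial tissues grown from intestinal stem cells in a gel of matrix proteins, here Matrigel with the factors Noggin, EGF and R-spondin-1. They came from C57BL/6 mice with a floxed Ppp2r1a, the scaffold subunit of the phosphatase PP2A, and a Cre that tamoxifen switches on only in cells that express Lgr5, so all 5 groups carry the floxed gene and the Cre. Every culture was kept for 50 days, and each group had 2 libraries: control (saline), DMBA (the carcinogen 7,12-dimethylbenzanthracene, with the word Long in its label), TAM short and TAM long (tamoxifen, labelled short or Long), and DMBA+TAM. The labels of both tamoxifen groups also say Dosage-sensitive and their titles DSS, and the DMBA+TAM titles say Lgr5, with neither S nor L. What short, Long and DSS stand for in these labels and titles is not stated in the sources used here. The titles of the control and TAM short libraries carry an S and those of the DMBA and TAM long libraries an L, with no gut segment in the labels. DMBA and TAM long thus differ from control both in treatment and in whatever S and L stand for, and these cannot be told apart. TAM short and control share the S. TAM long and TAM short share the tamoxifen label and differ in S and L.

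Hox genes encode transcription factors with a homeodomain that give cells their position along the head-to-tail axis. In mammals they stand in 4 clusters, and within a cluster the order of the genes follows the order of their expression, with low paralog numbers anterior and high ones posterior. In the gut, the posterior genes are known for expression in the hindgut, and both the mesenchyme and the epithelium keep Hox expression in the adult. Cofactors of the Pbx and Meis families bind DNA together with Hox proteins, and the Cdx factors of the intestinal epithelium are known activators of Hox genes.

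On the mouse build GRCm38, cluster A spans chr6:52162417-52260880 on the minus strand, cluster B chr11:96194316-96368256 on the plus strand, cluster C chr15:102921103-103036852 on the plus strand and cluster D chr2:74668310-74765142 on the plus strand. Promoters from RefSeq (GRCm38.p6) were found for 22 of the 38 members, with 24 start sites. The 250 bases before the start are printed here, 5′ to 3′ on the strand of the gene, for the members with an entry that had the highest FPKM in their paralog class as a mean over all 10 libraries (Hoxb4, Hoxa7 and Hoxa13, which are not the highest in every group) or the largest called change of cluster B (Hoxb8) or C (Hoxc4). Hoxa7 and Hoxb8 hold the motif of the Cdx factors, TTTATG. Capitals mark TTTAT, the core of that motif, or its reverse complement ATAAA, searched on both strands, so of each TTTATG these letters alone are in capitals.
Hoxa7 (chr6:52218574-52218823, minus strand): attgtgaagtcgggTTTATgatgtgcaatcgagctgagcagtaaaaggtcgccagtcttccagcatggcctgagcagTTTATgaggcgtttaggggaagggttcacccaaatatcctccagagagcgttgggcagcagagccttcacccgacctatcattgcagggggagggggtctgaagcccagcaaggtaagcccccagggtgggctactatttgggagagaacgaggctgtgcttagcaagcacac
Hoxa13 (chr6:52260881-52261130, minus strand): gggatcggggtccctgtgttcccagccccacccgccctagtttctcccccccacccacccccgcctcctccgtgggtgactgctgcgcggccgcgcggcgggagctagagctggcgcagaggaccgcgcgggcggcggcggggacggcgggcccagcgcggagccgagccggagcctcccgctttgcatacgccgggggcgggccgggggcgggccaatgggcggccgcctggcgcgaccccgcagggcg
Hoxb4 (chr11:96318017-96318266, plus strand): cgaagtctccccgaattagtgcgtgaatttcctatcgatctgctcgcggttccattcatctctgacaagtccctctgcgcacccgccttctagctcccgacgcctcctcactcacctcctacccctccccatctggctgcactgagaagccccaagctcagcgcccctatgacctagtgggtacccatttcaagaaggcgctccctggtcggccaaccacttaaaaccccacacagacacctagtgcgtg
Hoxb8 (chr11:96281655-96281904, plus strand): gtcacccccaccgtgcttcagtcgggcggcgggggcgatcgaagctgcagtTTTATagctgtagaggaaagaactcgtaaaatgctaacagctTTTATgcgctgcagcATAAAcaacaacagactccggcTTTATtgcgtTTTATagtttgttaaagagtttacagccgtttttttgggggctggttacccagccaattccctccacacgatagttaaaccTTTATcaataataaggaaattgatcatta
Hoxc4 (chr15:103034145-103034394, plus strand): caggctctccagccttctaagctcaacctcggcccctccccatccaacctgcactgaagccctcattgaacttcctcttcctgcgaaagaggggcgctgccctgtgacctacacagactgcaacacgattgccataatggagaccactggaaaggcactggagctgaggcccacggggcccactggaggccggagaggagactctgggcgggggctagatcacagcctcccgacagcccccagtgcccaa
TTTATG was found within these 250 bases in 5 of the 22 members with an entry (Hoxa7, Hoxb8, Hoxd3, Hoxd4 and Hoxd11), against 10.8% of all 32851 promoters of the table. The shorter TTTAT was found in 8 of these 22 members, against 37.3% of all promoters. Hoxb8 had 6 matches of TTTAT, of which 2 were TTTATG, and Hoxa7 had 2 matches of TTTATG. Hoxa13, Hoxb4 and Hoxc4 had no match in this window. A match describes these letters only, and no binding was measured.

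A further pair of sequences links members of different clusters. The Mir196a-1 locus, inside cluster B, gives rise to a microRNA that is known to act on Hox transcripts, and its host reads are given with the noncoding RNAs. The mature miR-196a-5p (RefSeq, chr11:96265187-96265208, plus strand) is shown with its seed, bases 2 to 8, in capitals. It is followed by 3 sites in member 3′ UTRs, capitals marking the match to the seed. Only sites with an exact match to the seed were searched, and these 3 have the most paired bases among them, counted without gaps. Sites with a mismatch in the seed were not searched, so members may hold other sites, also with more pairing.
miR-196a-5p: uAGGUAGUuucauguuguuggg
Hoxa7 (chr6:52215210-52215231, minus strand): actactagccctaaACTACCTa
Hoxa9 (chr6:52223900-52223921, minus strand): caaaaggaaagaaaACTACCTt
Hoxb7 (chr11:96289784-96289805, plus strand): ctgtaaaaaaatatACTACCTa
Such a seed match was present in the 3′ UTR of 8 of the 38 members (Hoxa4, Hoxa5, Hoxa7, Hoxa9, Hoxb1, Hoxb6, Hoxb7 and Hoxc8), against 6.10% of 21028 genes. The 3 sites shown pair at 14 of 22 bases. The mature microRNA itself was not measured in these libraries.

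The libraries differed in depth and in the cells they reflect. Counts assigned to genes were 8828247 to 10923673 in 8 libraries and 1592366 and 1915270 in DMBA+TAM, so 3 counts, the number that a count of 0 still allows, were 0.258 to 0.378 normalized CPM (counts relative to the TMM-scaled library total) in the former and 1.58 and 1.32 in the latter. The 12 epithelial markers summed to 17200 to 27100 normalized CPM in 8 libraries and to 42.7 and 28.1 in DMBA+TAM, where the defining marker Epcam had 1.58 and 1.32 and fibroblast markers summed to 33700 and 34400, against 728 to 2560 elsewhere. The labelled organoid epithelium was thus barely seen in the DMBA+TAM libraries. The 12 markers of the small intestine summed to 51000 and 52300 in control, 30800 and 26000 in TAM short, and 295 to 846 in DMBA and TAM long. The 7 colon markers of the table summed to 1340 to 1620 in control, 2570 to 3180 in TAM short and 15900 to 22000 in DMBA and TAM long, with Car1 at 0 in both control libraries. The 6 smooth muscle markers summed to 1210 to 2280 in control and TAM short, 12000 and 7140 in DMBA, 8340 and 12800 in TAM long, and 1460 and 1600 in DMBA+TAM, and against control edgeR called all 6 higher in DMBA and likewise in TAM long. The 8 markers of enteric neurons and glia summed to 27.4 and 25.1 in control, 14.8 and 12 in TAM short, and 54.5 to 90.6 in the other 3 groups, with 6 higher in DMBA and 5 in TAM long, where 24.5% and 23.2% of all genes were higher. Against control, 10 of the 12 fibroblast markers were higher in DMBA and 7 in TAM long. Between replicates, the chi-square over genes per degree of freedom, which grows with depth, was 67.05 in DMBA and 5.57 to 23.2 in the other groups, while Pearson's r across genes on log2(FPKM + 1) was lowest in DMBA+TAM (0.975), with 0.982 in DMBA and 0.991 to 0.994 in the others. DMBA+TAM 2 alone held skeletal muscle genes (7380 normalized CPM, against 5.27 to 21.9 elsewhere). Ppp2r1a had 123 and 129 normalized CPM in control, 167 and 152 in DMBA, 130 and 147 in TAM short, 169 and 157 in TAM long and 129 and 133 in DMBA+TAM, summed over all exons, so the floxed exons cannot be read apart. Nothing states that libraries of a group came from separate cultures or animals, and p-values then cover only the spread between these libraries. In bulk RNA, fewer cells of a type and less RNA per cell cannot be told apart.

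Per length, the Hox genes were a low but widely varying group. The FPKM (reads scaled by gene length and library total, as deposited) of all 38 members summed to 15.8 and 14.5 in control, 36.1 and 46.4 in TAM short, 290 and 240 in DMBA, 271 and 251 in TAM long, and 198 and 176 in DMBA+TAM. TAM short was the group nearest to control, and all 8 libraries of the other groups lay above both control libraries. Of the 38 members, 22 to 33 had at least 1 count in a library. Hoxb1, Hoxc12 and Hoxd1 had none in any library, and 29 members passed the filter on low counts and were tested.

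**Figure D1:**
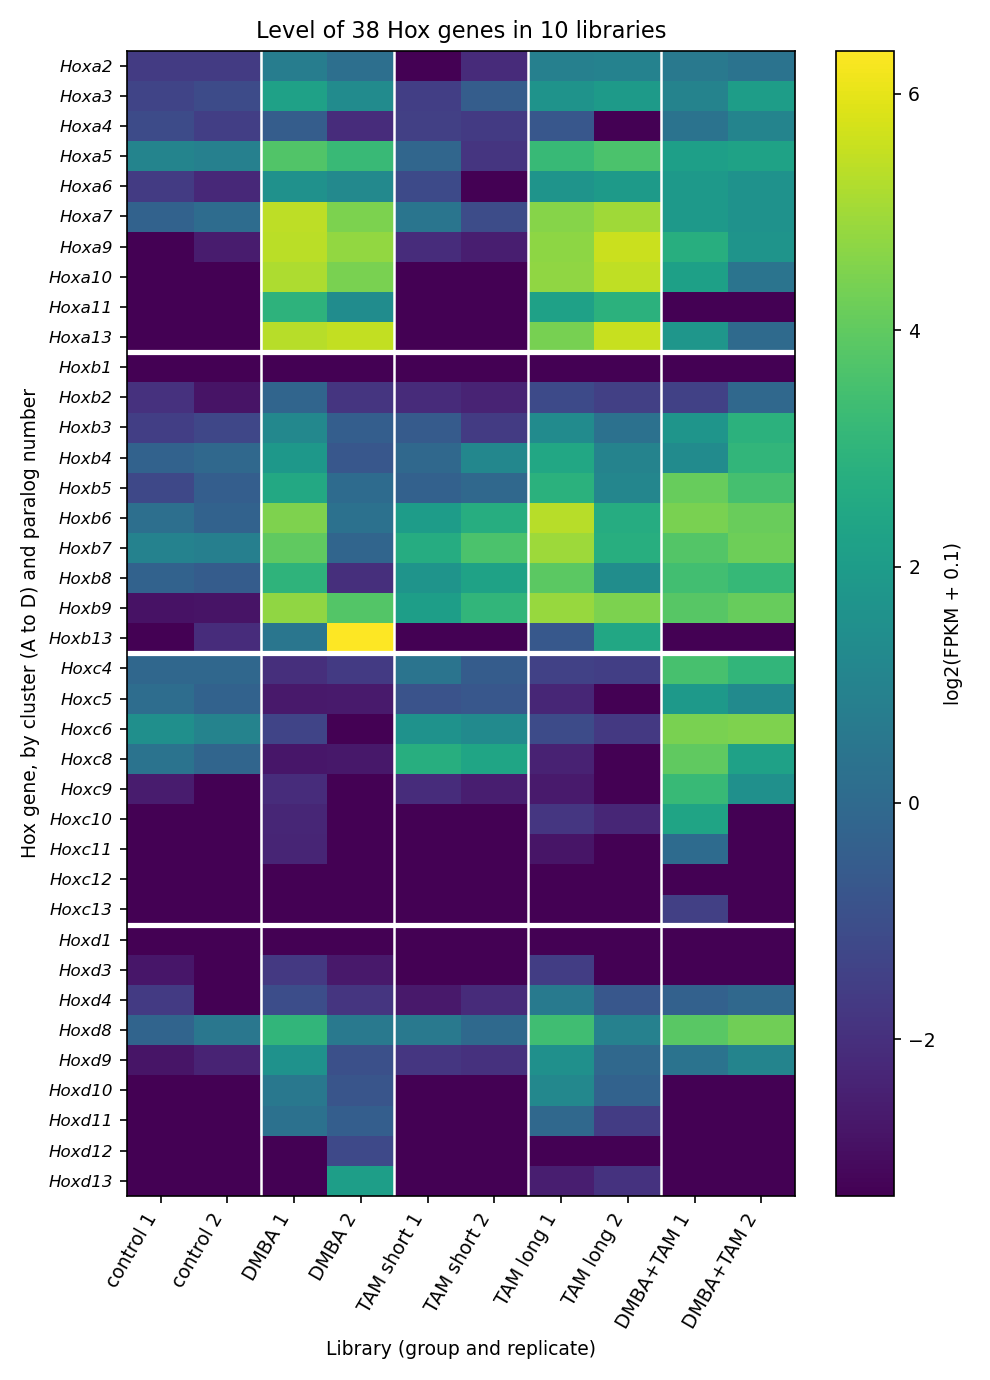
Level of each of the 38 Hox genes (vertical, by cluster and paralog number) in each of the 10 libraries (horizontal), as log2(FPKM + 0.1) by colour. Hoxa7 to Hoxa13 are bright in DMBA and TAM long, Hoxc4, Hoxc5, Hoxc6 and Hoxc9 are brightest in DMBA+TAM, and Hoxb13 stands out in DMBA 2 (82.2 FPKM).

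The clusters shared these sums unequally. Cluster A summed to 3.79 and 3.77 FPKM in control, 189 and 132 in DMBA, 3.05 and 1.59 in TAM short, 120 and 198 in TAM long, and 30.6 and 23.3 in DMBA+TAM. Cluster B summed to 5.16 and 5.07 in control, 86.4 and 99.9 in DMBA, 20 and 35.0 in TAM short, 132 and 48.2 in TAM long, and 83.0 and 90.5 in DMBA+TAM. Cluster A was higher in DMBA and TAM long than in the other 3 groups, like the summed markers of smooth muscle (at least 7140 normalized CPM against at most 2280) and colon (at least 15900 against at most 3180), and the part of the cell makeup in this was not tested, whereas cluster B was above both control libraries in all 8 other libraries. Cluster C ran the other way, with 5.80 and 4.24 FPKM in control, 11.4 and 8.60 in TAM short, 67.7 and 40.2 in DMBA+TAM, but 0.885 and 0.328 in DMBA and 1.12 and 0.562 in TAM long. The summed small intestine markers were also lower in DMBA and TAM long (295 to 846 normalized CPM) than in control and TAM short (26000 to 52300). In DMBA+TAM, where cluster C was highest, they were at 36.9 and 33. The part of the cell makeup in cluster C was not tested. Cluster D summed to 1.08 and 1.43 in control, 14.2 and 7.67 in DMBA, 1.66 and 1.18 in TAM short, 18.2 and 4.31 in TAM long, and 16.3 and 22.1 in DMBA+TAM. TAM short overlapped control in cluster D and did not in clusters A, B and C. These sums are a description, without a test.

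The position along the clusters moved as well. Paralogs 9 to 13 made up 0.949% and 2.33% of the summed Hox FPKM in control, 13% and 18.5% in TAM short, 54.5% and 82.0% in DMBA, 42.3% and 69.5% in TAM long, and 22.9% and 15.5% in DMBA+TAM. The mean paralog number, weighted by FPKM, was 5.84 and 5.97 in control, 6.95 and 7.05 in TAM short, 8.49 and 10.74 in DMBA, 7.91 and 9.17 in TAM long, and 6.92 and 6.42 in DMBA+TAM. All 4 libraries of DMBA and TAM long were above every other library on both measures. TAM short and DMBA+TAM overlapped in the share of paralogs 9 to 13, and both lay above control. The highest single member by FPKM was Hoxc6 in both control libraries (2.71 and 1.89), Hoxc8 (6.66) and Hoxb7 (12.3) in TAM short, Hoxa7 (42.0) and Hoxb13 (82.2) in DMBA, Hoxb6 (40.3) and Hoxa9 (48) in TAM long, and Hoxb6 (21.4) and Hoxc6 (22.3) in DMBA+TAM.

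**Figure D2:**
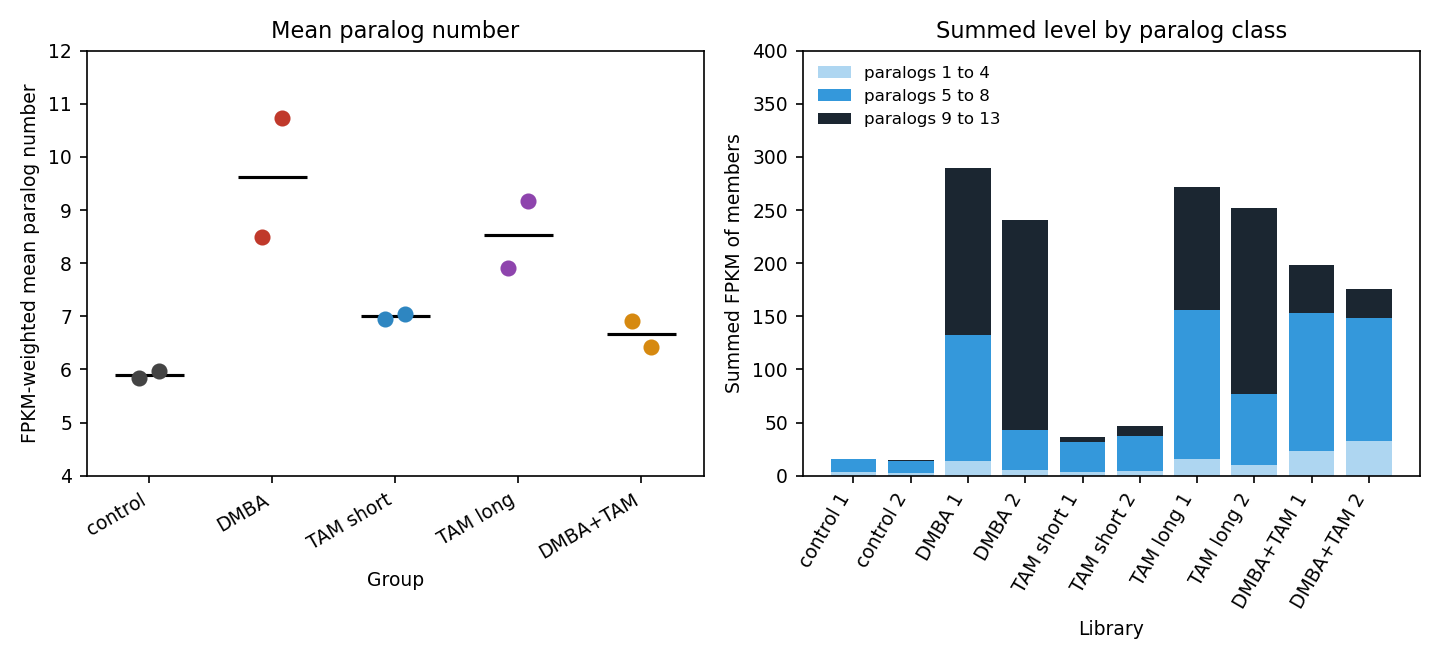
Left, mean paralog number weighted by FPKM, with 1 point per library and a line at the group mean; right, summed FPKM of the members in each library as bars stacked by paralog class. The 4 libraries of DMBA and TAM long lie highest in both (from 7.91 to 10.74, and from 240 to 290 FPKM).

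Counted over the 29 tested members, the carcinogen alone and tamoxifen long differed from control in the same 3 clusters upward and in cluster C downward. In DMBA against control, 15 members were higher and 4 lower (edgeR's quasi-likelihood test, adjusted p under 0.05), where 24.5% of all 16179 genes tested were higher and 23.3% lower. By cluster, 9 of 10 tested members of A, 3 of 9 of B and 3 of 5 of D were higher, and 4 of 5 of C were lower. In TAM long against control, 19 were higher and 4 lower, beside 23.2% and 22.8% of all genes, with 9 of A, 6 of B and 4 of D higher and 4 of C lower. The median fitted log2 fold change of the tested members was 2.29 in DMBA and 3.02 in TAM long (2.24 and 2.86 with members against a group at 0 set to their bound), beside 0.07 and 0.05 over all genes. Hoxa10, Hoxa11, Hoxa13, Hoxd10 and Hoxd11, at 0 in control and TAM short, passed the filter only through groups where they are high. These 5 of the higher calls in either comparison thus had a fixed direction. Hoxa6, Hoxa9, Hoxb9, Hoxb13 and Hoxd9 had at most 3 counts per control library, so for them too a lower call could hardly occur. The counts and medians over the tested members are therefore descriptions only. With counts thinned to the depth of the smallest library, the calls were 9 in DMBA and 11 in TAM long. Both comparisons share the control libraries. Without 1 library, 5 of the 19 calls of DMBA and 9 of the 23 of TAM long ended for at least 1 choice of library, and the TAM long count fell to 14 without TAM long 1 and to 15 without control 2.

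TAM short differed from control in few members. Of the 29, 2 were higher (Hoxb9 and Hoxc8) and 1 lower (Hoxa5), beside 6.52% and 7.80% of all genes by edgeR. The median log2 fold change was 0.06 (0 with bounds), against -0.04 over all genes. The count was 1 without control 1, control 2 or TAM short 2, and 6 when only these 2 groups entered the fit. TAM long against TAM short, the comparison of the tamoxifen groups, had 15 members higher and 4 lower, beside 22.0% and 20.3% of all genes, with a median log2 fold change of 2.34 (2.18 with bounds) against 0.05. For Hoxa2, Hoxa6, Hoxa9 and Hoxd4, with at most 3 counts per TAM short library, a lower call could hardly occur in this comparison, so these counts are descriptions. Here 9 members of A, 2 of B and 4 of D were higher and 4 of C lower, the same 5 members at 0 in TAM short included, 10 calls were made with thinned counts, and 6 of the 19 calls ended without some library.

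DMBA+TAM, the combined treatment the study centres on, was set against each other group. Against control, 16 members were higher and 0 lower, beside 29.0% and 35.3% of all genes. The count of 0 lower was the same by edgeR at an unadjusted p under 0.05 (20 higher) and by DESeq2 (20 higher), and the higher ones were 6 of A, 4 of B, 4 of C and 2 of D. These zeros say little, since Hoxa10, Hoxa11, Hoxa13, Hoxd10 and Hoxd11 were at 0 in control and could not be lower, and several others were in control under the 1.32 normalized CPM that 0 counts still allow in DMBA+TAM. Against TAM short, 15 were higher and 0 lower, beside 29.3% and 33.8% of all genes, with 0 lower also at an unadjusted p under 0.05 (17 higher) and by DESeq2 (17 higher). These zeros say little too, since Hoxa10, Hoxa11, Hoxa13, Hoxb13, Hoxd10 and Hoxd11 were at 0 in TAM short and could not be lower. Hoxa2, Hoxa6, Hoxa9, Hoxb2, Hoxc9 and Hoxd4 had at most 3 counts per library there, so a lower call could hardly occur. The counts against TAM short are descriptions. Against DMBA, 7 were higher and 8 lower, beside 25.2% and 29.9%, and against TAM long 5 were higher and 7 lower, beside 25.3% and 29.9%. Such counts among the 29 tested members are near or under the shares of all genes and are no result about the members. Against DMBA and against TAM long, all 5 tested members of cluster C were higher and 6 of cluster A lower. Hoxc9 had passed the filter only through DMBA+TAM and could not be lower. Hoxc4, Hoxc5, Hoxc6 and Hoxc8 had at most 6 counts per library in DMBA and TAM long. That is under the 1.32 normalized CPM that 0 counts still allow in DMBA+TAM, so a lower call could not be made for them either. The median log2 fold change was 2.75 against control (2.7 with bounds), 2.43 against TAM short (2.32), 0.17 against DMBA (0.17) and -0.37 against TAM long (-0.32), with -0.17 over all genes against control and -0.14 in the other 3. Thinned counts gave 8 calls against TAM short, and no filter on low counts gave 24 against DMBA and 19 against TAM long. Of the calls, 6 of 16, 6 of 15, 5 of 15 and 2 of 12 ended without some library, in the order control, TAM short, DMBA and TAM long.

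**Figure D3:**
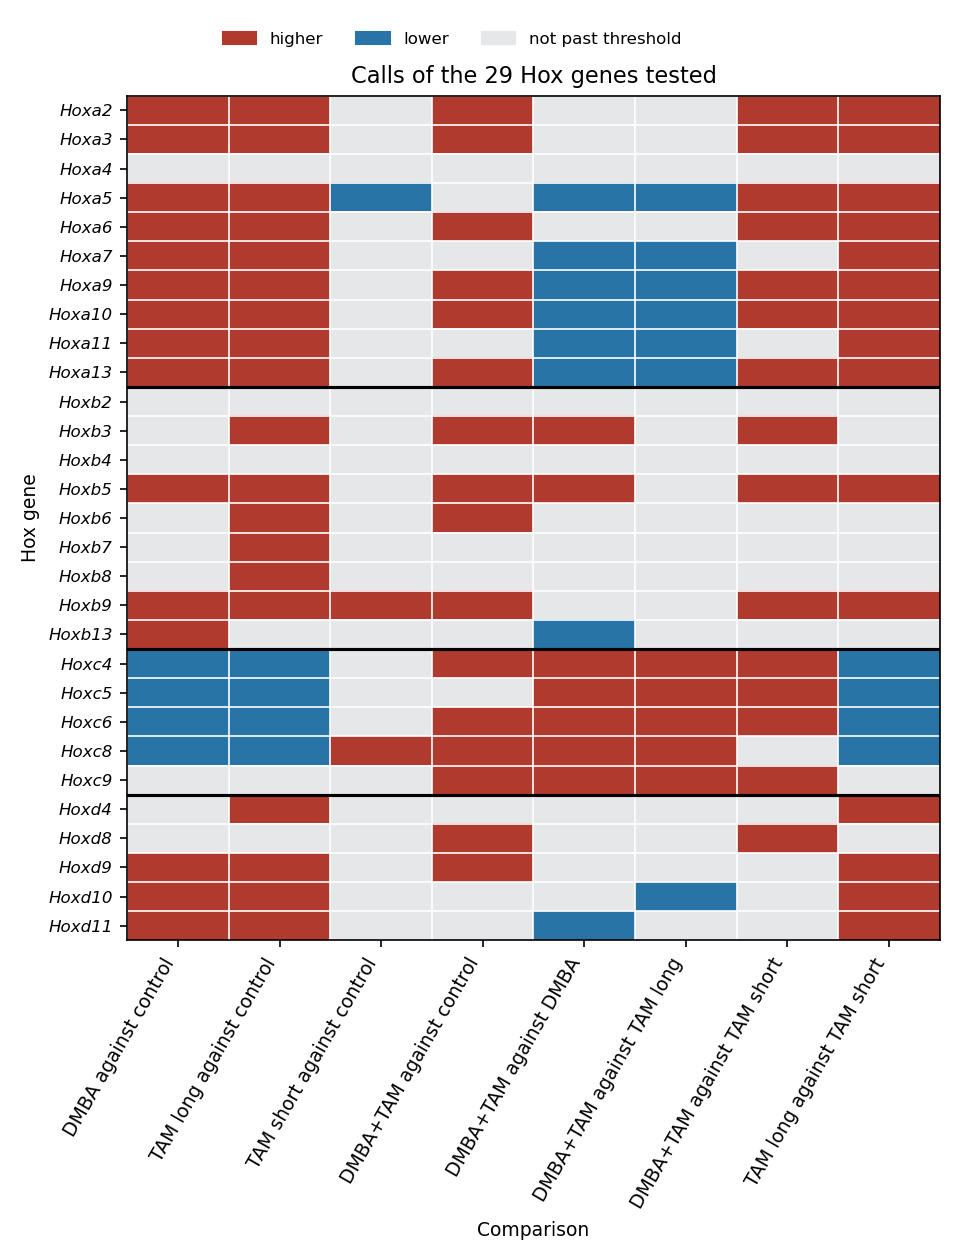
Call of each of the 29 tested Hox genes (vertical) in each of 8 comparisons (horizontal), red for higher and blue for lower by edgeR at an adjusted p under 0.05, grey for neither. Cluster A is red in 9 members in DMBA and in TAM long against control and blue in 6 in DMBA+TAM against either, and cluster C shows blue and then red.

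In cluster A, the anterior members had reads in every group, whereas the posterior ones were at or near 0 in control and TAM short. Hoxa10, a posterior factor best known from the uterus and limb, had 0 counts in the 4 libraries of control and TAM short, 616 and 330 in DMBA (54.9 and 37 normalized CPM), 495 and 716 in TAM long (42.6 and 70.2), and 12 and 4 in DMBA+TAM (6.32 and 1.76). Hoxa13, the terminal gene of the cluster and needed for the hindgut end and the digits, had 0 in control and TAM short, 447 and 454 in DMBA (39.8 and 50.9), 255 and 510 in TAM long (21.9 and 50) and 6 and 2 in DMBA+TAM (3.16 and 0.879). Hoxa9, a leukaemia-linked factor, had 0 and 1 in control, 2 and 1 in TAM short, 610 and 379 in DMBA (54.4 and 42.5), 430 and 701 in TAM long (37 and 68.8) and 16 and 9 in DMBA+TAM (8.43 and 3.96). In these 3 genes the DMBA and TAM long libraries overlapped each other and lay above all other libraries, and DMBA+TAM lay between. Hoxa11, needed for limb and kidney, had 166 and 50 counts in DMBA, 110 and 158 in TAM long and 0 in the other 6 libraries.

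The tests followed this order. Hoxa10 was at least 131-fold higher in DMBA than in control (edgeR adjusted p = 3.55e-05) and at least 161-fold higher in TAM long (2.91e-05), counted against 3 reads per library. Hoxa13 was at least 130-fold (edgeR adjusted p = 6.06e-05) and at least 103-fold higher (8.11e-05), and Hoxa11 at least 29.2-fold (0.000947) and at least 35.7-fold higher (0.000786). For Hoxa9, with 1 read in control, the ratio was 844 in DMBA (95% interval of the counts 151 to 33400, edgeR adjusted p = 4.11e-06) and 891 in TAM long (160 to 35200, adjusted p = 3.78e-06). Such intervals cover counting error only. Against DMBA, DMBA+TAM was lower by -3.57 ± 0.51 (log2 fold change ± SE, edgeR adjusted p = 0.000589) for Hoxa10, -4.54 ± 0.64 (0.000545) for Hoxa13 and -3.0 ± 0.42 (0.000196) for Hoxa9, and at least 7.04-fold lower for Hoxa11 (0.00463). Against control, DMBA+TAM was at least 11.6-fold higher for Hoxa10 (edgeR adjusted p = 0.00252) and at least 5.78-fold higher for Hoxa13 (0.0183), but without DMBA+TAM 1 the adjusted p of Hoxa13 was 0.146.

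Hoxa7 and Hoxa5, of the middle of the cluster, had reads in all libraries. Hoxa7, whose promoter holds TTTATG, had 1.02 and 1.44 normalized CPM in control, 1.69 and 0.504 in TAM short, 45.7 and 27.1 in DMBA, 27.5 and 36.4 in TAM long, and 3.69 and 3.08 in DMBA+TAM. Hoxa5, known for lung and gut morphogenesis, had 4.29 and 3.97 in control, 1.69 and 0.378 in TAM short, 22.1 and 18.3 in DMBA, 15.9 and 21.8 in TAM long, and 6.85 and 7.47 in DMBA+TAM. Both were highest in DMBA and TAM long, which overlapped, and Hoxa5 in TAM short lay below both control libraries. Hoxa7 rose by 4.88 ± 0.42 in DMBA (edgeR adjusted p = 1.62e-05) and 4.69 ± 0.42 in TAM long (2.09e-05) on the log2 scale and was lower in DMBA+TAM than in DMBA by -3.44 ± 0.46 (0.000147). Hoxa5 rose by 2.29 ± 0.34 in DMBA (edgeR adjusted p = 0.000447) and 2.18 ± 0.34 in TAM long (0.000611), and its value in TAM short against control was -1.94 ± 0.46 (0.0203). That TAM short call ended without control 1, control 2 or TAM short 2 (edgeR adjusted p = 0.0941 to 0.107), and the call of Hoxa5 in DMBA+TAM against DMBA, -1.49 ± 0.38 (0.00814), ended without DMBA+TAM 1 (0.0503).

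Hoxa2, Hoxa3 and Hoxa6 were at low levels in control. Hoxa2, active in the hindbrain and branchial arches, had 0.451 and 0.481 normalized CPM in control, 0 and 0.252 in TAM short, 2.58 and 1.91 in DMBA, 2.93 and 3.14 in TAM long, and 2.11 and 1.76 in DMBA+TAM. Hoxa3, needed for thymus and parathyroid, had 0.564 and 0.721 in control, 0.451 and 1.13 in TAM short, 6.68 and 4.15 in DMBA, 4.65 and 5.98 in TAM long, and 2.63 and 5.72 in DMBA+TAM. Hoxa6 had 0.226 and 0.12 in control, 0.338 and 0 in TAM short, 2.23 and 2.02 in DMBA, 2.58 and 3.14 in TAM long, and 2.63 and 2.2 in DMBA+TAM. In all 3, the 6 libraries of DMBA, TAM long and DMBA+TAM lay above control and TAM short. Hoxa3 rose by 3.06 ± 0.52 in DMBA (edgeR adjusted p = 0.00104) and Hoxa2 by 2.24 ± 0.57 (0.00941), and Hoxa6 was at a ratio of 12.2 (95% interval 3.91 to 61.6, adjusted p = 0.00304). The Hoxa2 call ended without control 1, control 2 or DMBA 1 (edgeR adjusted p = 0.0516 to 0.0727). Hoxa4 had 6 and 4 counts in control, 4 and 3 in TAM short, 10 and 2 in DMBA, 9 and 0 in TAM long, and 3 and 6 in DMBA+TAM, and passed in no comparison. The listed span of Hoxa3 overlaps those of Hoxa4, Hoxa5 and Hoxa6, whose reads could have been shared or dropped in counting.

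In cluster B, replicates are given singly because several members differed between them. Hoxb9, a posterior factor of the thorax and mammary gland, had 1 count in each control library (0.113 and 0.12 normalized CPM), 101 and 177 in TAM short (11.4 and 22.3), 656 and 298 in DMBA (58.5 and 33.4), 777 and 514 in TAM long (66.9 and 50.4), and 55 and 80 in DMBA+TAM (29 and 35.2). All 8 other libraries lay above control, TAM short lowest among them, and DMBA+TAM overlapped DMBA. The ratio to control was 142 in TAM short (95% interval 39 to 1180, edgeR adjusted p = 0.000225), 407 in DMBA (112 to 3360, adjusted p = 6.87e-06), 508 in TAM long (140 to 4200, adjusted p = 4.91e-06) and 278 in DMBA+TAM (75.5 to 2320, adjusted p = 4.35e-06). TAM long exceeded TAM short by 1.81 ± 0.33 on the log2 scale (edgeR adjusted p = 0.00194). Hoxb9 was the one tested member of the cluster called in all 4 comparisons with control, and none of these calls ended without a library.

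Hoxb13, the terminal gene of the cluster and a marker of the distal colon and prostate, went with single libraries. It had 29 counts in DMBA 1 and 1660 in DMBA 2 (2.58 and 186 normalized CPM), 13 and 118 in TAM long (1.12 and 11.6), 0 and 3 in control, and 0 in TAM short and DMBA+TAM. DMBA 2 was thus far above every other library, DMBA 1 included. The ratio of DMBA to control was 480 (95% interval 164 to 2330, edgeR adjusted p = 0.0216), and it no longer passed without control 1, control 2 or DMBA 2 (0.109 to 0.137). Without DMBA 2 the fitted log2 fold change fell from 8.95 to 3.76. In TAM long it was 34.4 (11.5 to 169) and did not pass (edgeR adjusted p = 0.219). Against DMBA, DMBA+TAM was at least 65.1-fold lower (edgeR adjusted p = 0.0488), a call that ended without DMBA 2, DMBA+TAM 1 or DMBA+TAM 2 (0.145 to 0.176). The bound rests on DMBA 2, since DMBA 1, at 2.58 normalized CPM, is near the 1.58 and 1.32 that 0 counts allow in DMBA+TAM. Hoxd13, the terminal gene of cluster D, followed the same libraries with 95 counts in DMBA 2, 0 in DMBA 1, 2 and 4 in TAM long and 0 in the other 6, and was not tested.

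The middle genes of cluster B ran opposite to Hoxb13 within the same groups. Hoxb6 had 32.5 normalized CPM in DMBA 1 and 1.91 in DMBA 2, 62.3 and 9.91 in TAM long, 2.03 and 1.44 in control, 7.33 and 11.8 in TAM short, and 29.5 and 24.6 in DMBA+TAM. Hoxb7 had 11.9 and 0.673 in DMBA, 24.1 and 5.3 in TAM long, 1.81 and 1.68 in control, 5.86 and 11.3 in TAM short, and 9.48 and 13.2 in DMBA+TAM. Hoxb8, with the most TTTAT matches of the promoters printed, had 10.2 and 0.224 in DMBA, 20.9 and 3.63 in TAM long, 1.24 and 1.08 in control, 5.07 and 7.68 in TAM short, and 13.2 and 11 in DMBA+TAM. In each, DMBA 1 and TAM long 1 were high and DMBA 2 was near or below control, so DMBA overlapped control. None of the 3 passed in DMBA against control, while TAM long was higher by 4.37 ± 1.24 for Hoxb6 (edgeR adjusted p = 0.0163), 3.07 ± 1.05 for Hoxb7 (0.037) and 3.39 ± 1.2 for Hoxb8 (0.0426). These TAM long calls ended without control 1, control 2 or TAM long 1 (edgeR adjusted p = 0.0958 to 0.385). Without TAM long 1 the log2 fold changes were 2.49, 1.59 and 1.62, whereas without a control library they were 3.01 to 4.63. Without DMBA 2, 20 members in all rather than 15 were higher in DMBA than in control.

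**Figure D4:**
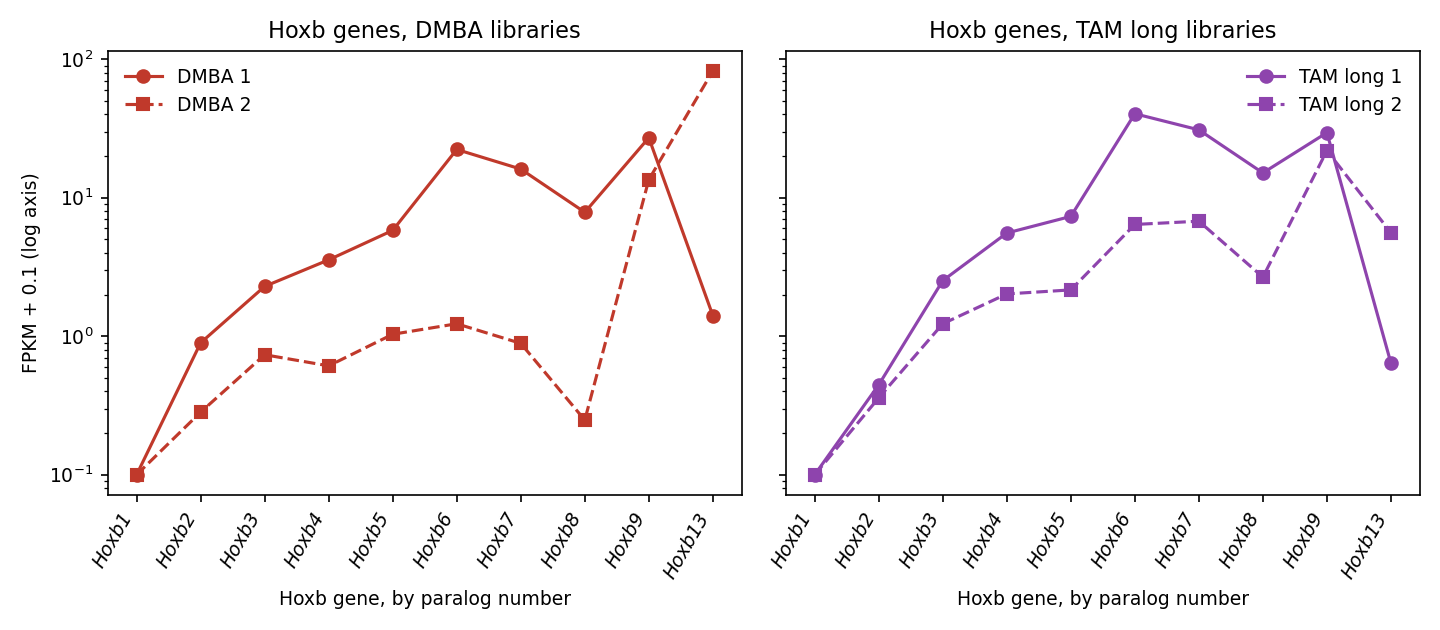
FPKM + 0.1 of the 10 cluster B members by paralog number, on a log axis, for both DMBA libraries (left) and both TAM long libraries (right), with 1 line per library. Library 1 lies above library 2 from Hoxb2 to Hoxb9 and below it at Hoxb13, in DMBA and in TAM long.

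The lower-numbered genes of cluster B are known from the hindbrain and neck. Hoxb5, known from enteric neuron development, had 0.903 and 1.8 normalized CPM in control, 1.8 and 2.27 in TAM short, 11.9 and 2.24 in DMBA, 15.9 and 4.61 in TAM long, and 33.7 and 22.4 in DMBA+TAM. Hoxb4, a factor of blood stem cells, had 2.14 and 2.64 in control, 2.48 and 6.04 in TAM short, 7.93 and 1.35 in DMBA, 13.2 and 4.71 in TAM long, and 5.27 and 17.6 in DMBA+TAM. Hoxb3 had 0.451 and 0.601 in control, 1.01 and 0.378 in TAM short, 3.03 and 1.01 in DMBA, 3.53 and 1.67 in TAM long, and 4.21 and 9.67 in DMBA+TAM. DMBA+TAM lay above all other libraries for Hoxb3 and Hoxb5, and groups overlapped for Hoxb4, which passed in no comparison. DMBA+TAM exceeded control by 4.36 ± 0.87 for Hoxb5 (edgeR adjusted p = 0.00147) and by 3.71 ± 0.79 for Hoxb3 (0.00217). Hoxb5 in DMBA against control, 2.42 ± 0.86 (edgeR adjusted p = 0.041), ended without control 1, control 2 or DMBA 1 (0.109 to 0.560), and without DMBA 1 the value was 0.71. Hoxb2 had 4 and 1 counts in control, 3 and 2 in TAM short, 19 and 4 in DMBA, 9 and 6 in TAM long, and 1 and 4 in DMBA+TAM, and passed in no comparison.

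Cluster C was the cluster that was lower in DMBA and TAM long. Against control, 11 of the 12 small intestine markers were lower in each as well, beside 23.3% and 22.8% of all genes. The part of the cell makeup in this was not tested. Hoxc6, a thoracic paralog, had 28 and 19 counts in control (3.16 and 2.28 normalized CPM), 29 and 21 in TAM short (3.27 and 2.64), 3 and 0 in DMBA (0.267 and 0), 4 and 2 in TAM long (0.344 and 0.196), and 34 and 43 in DMBA+TAM (17.9 and 18.9). Hoxc8, active in the trunk, had 25 and 16 in control (2.82 and 1.92), 134 and 91 in TAM short (15.1 and 11.5), 1 and 1 in DMBA, 2 and 0 in TAM long, and 52 and 18 in DMBA+TAM (27.4 and 7.91). Control and TAM short lay above DMBA and TAM long in both genes, and TAM short lay above control for Hoxc8 only. Hoxc6 was 18.4-fold lower in DMBA than in control (95% interval 5.91 to 92.2, edgeR adjusted p = 0.000831) and -3.24 ± 0.59 in TAM long on the log2 scale (0.00164). Hoxc8 was 24-fold lower in DMBA (6.24 to 205, edgeR adjusted p = 0.00427) and 26-fold lower in TAM long (6.76 to 222, adjusted p = 0.00371). In TAM short it was 2.48 ± 0.53 above control (edgeR adjusted p = 0.013), but without any 1 of the 4 libraries this was 0.0686 to 0.134.

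Hoxc4 and Hoxc5 were likewise lower in DMBA and TAM long. Hoxc4, the first gene of the cluster, had 2.03 and 2.04 normalized CPM in control, 2.82 and 1.39 in TAM short, 0.267 and 0.448 in DMBA, 0.516 and 0.49 in TAM long, and 20 and 14.1 in DMBA+TAM. Hoxc5 had 18 and 13 counts in control, 8 and 8 in TAM short, 1 and 1 in DMBA, 2 and 0 in TAM long, and 10 and 8 in DMBA+TAM. In both, DMBA and TAM long lay below all other libraries. Hoxc4 was -2.49 ± 0.54 in DMBA (edgeR adjusted p = 0.00426) and -1.98 ± 0.5 in TAM long (0.0097), the latter ending without TAM long 1 or TAM long 2 (0.0543 to 0.0590). Hoxc5 was 18.2-fold lower in DMBA (95% interval 4.62 to 157, edgeR adjusted p = 0.00195) and 19.7-fold lower in TAM long (5.01 to 170, adjusted p = 0.00168). Hoxc9, the most posterior of the tested members of cluster C, had 0 to 2 counts in 8 libraries and 22 and 8 in DMBA+TAM (11.6 and 3.52). The span of Hoxc5 overlaps those of Hoxc6, Hoxc8, Hoxc9 and Hoxc10, so reads may have been split among them.

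DMBA+TAM held the highest cluster C levels. Against DMBA, Hoxc4 was higher by 5.54 ± 0.51 (edgeR adjusted p = 1.07e-05), and the ratios of Hoxc6 and Hoxc8 were 124 (95% interval 40.8 to 614, adjusted p = 9.84e-06) and 169 (45.1 to 1420, adjusted p = 5.22e-05). Against control, where cluster C was present, the differences were smaller, with Hoxc4 at 3.05 ± 0.42 (edgeR adjusted p = 0.000123), Hoxc6 at 2.75 ± 0.44 (0.000372) and Hoxc8 at 2.86 ± 0.56 (0.00135). Hoxc9 was at a ratio of 124 to control (20.5 to 5040, edgeR adjusted p = 0.000405). None of these calls ended without a library. Against TAM short, Hoxc8 was 0.38 ± 0.5 and did not pass (edgeR adjusted p = 0.524). The DMBA+TAM libraries are also those with fibroblast markers at 33700 and 34400 normalized CPM and Epcam near 0. Immune markers (3730 and 3660 against 109 to 297 elsewhere), fat markers (2980 and 1310 against 43.9 to 195) and endothelial markers (500 and 499 against 48.6 to 92.4) were highest there too, and the part of the cell makeup in these values was not tested.

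**Figure D5:**
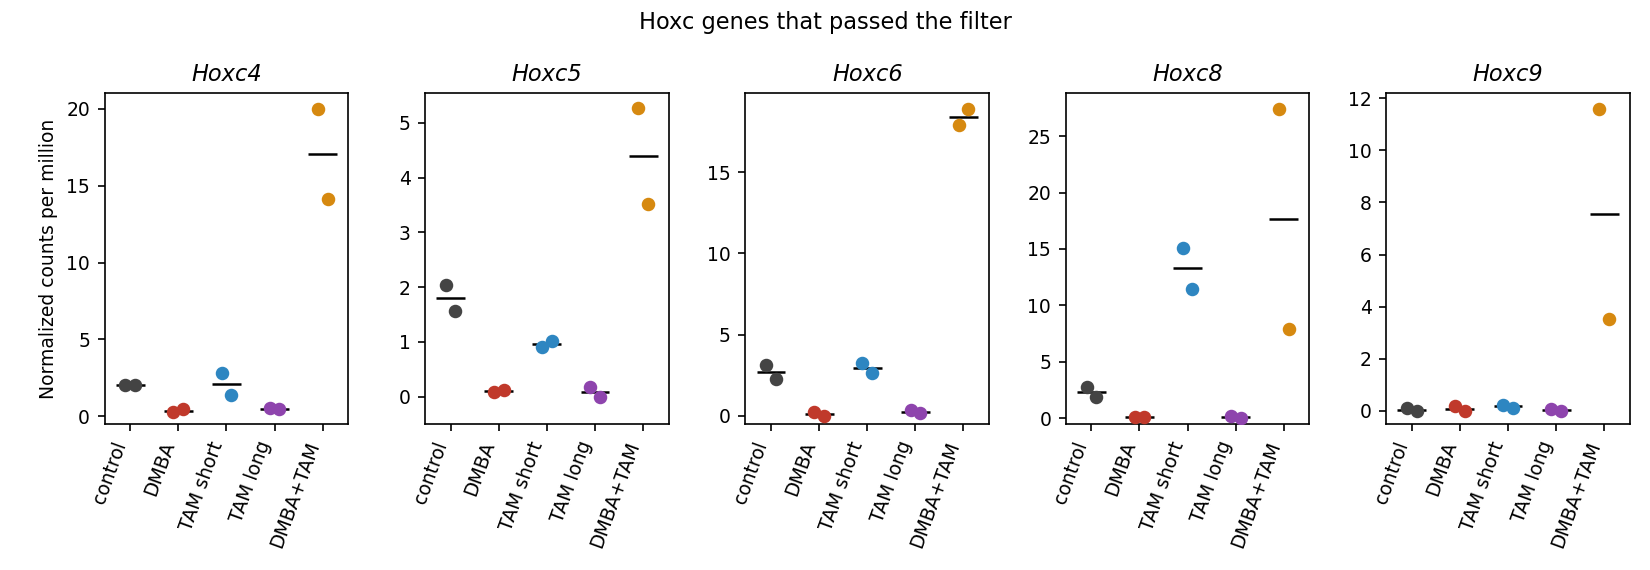
Normalized CPM of the 5 tested cluster C members by group, each on its own axis, with 1 point per library and a line at the group mean. DMBA and TAM long points lie lowest for Hoxc4, Hoxc5, Hoxc6 and Hoxc8, and both DMBA+TAM points lie highest for all but Hoxc8.

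Cluster D is known from limb, trunk and hindgut. Hoxd8 had 1.47 and 2.64 normalized CPM in control, 2.59 and 1.64 in TAM short, 12 and 2.35 in DMBA, 16.4 and 2.84 in TAM long, and 20 and 26.8 in DMBA+TAM. Hoxd9 had 0.113 and 0.24 in control, 0.451 and 0.378 in TAM short, 5.7 and 0.897 in DMBA, 5.68 and 1.77 in TAM long, and 2.11 and 3.52 in DMBA+TAM. Within DMBA and TAM long, library 1 was above library 2 for both genes, as for Hoxb6 to Hoxb8. Hoxd8 was 3.51 ± 0.93 above control in DMBA+TAM (edgeR adjusted p = 0.00765), which without control 1 was 0.0645. Hoxd9 was at a ratio of 20.5 in DMBA (95% interval 6.73 to 102, edgeR adjusted p = 0.0123), 22.1 in TAM long (7.29 to 109, adjusted p = 0.0102) and 16.5 in DMBA+TAM (4.44 to 91, adjusted p = 0.027), and each call ended without control 1 or control 2, those of DMBA and TAM long also without their library 1, and that of DMBA+TAM without either of its own (0.0556 to 0.169).

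Hoxd10 and Hoxd11, factors of the forelimb and the lumbar and sacral axis, had no counts in control, TAM short or DMBA+TAM. Hoxd10 had 25 and 8 counts in DMBA and 44 and 13 in TAM long, and Hoxd11 had 25 and 13 in DMBA and 21 and 5 in TAM long. Hoxd10 was at least 4.47-fold higher in DMBA than in control (edgeR adjusted p = 0.0144) and at least 7.24-fold higher in TAM long (0.00769). Hoxd11 was at least 5.27-fold (edgeR adjusted p = 0.00854) and at least 3.29-fold higher (0.0171). The Hoxd10 call of DMBA ended without control 1, control 2 or DMBA 1 (edgeR adjusted p = 0.0518 to 0.0649) and the Hoxd11 call of TAM long without control 1, control 2 or TAM long 1 (0.0733 to 0.0775). At the DMBA+TAM depth, 0 counts still allow 1.58 and 1.32 normalized CPM, which is above the Hoxd10 level of DMBA 2 (0.897). Hoxd4 had 4 and 0 counts in control, 1 and 2 in TAM short, 7 and 3 in DMBA, 28 and 9 in TAM long, and 2 and 3 in DMBA+TAM. It passed in TAM long against control (2.76 ± 0.9, edgeR adjusted p = 0.0305), a call that ended without control 2 or TAM long 1 (0.170 to 0.252).

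Beside Hoxd13, 5 further members with counts were not tested. Hoxc10 had 15 counts in DMBA+TAM 1, 0 in DMBA+TAM 2, 2 and 0 in DMBA, and 4 and 2 in TAM long. Hoxc11 had 3 and 0 in DMBA+TAM, 2 and 0 in DMBA, and 1 and 0 in TAM long. Both genes were at 0 in control and TAM short, unlike the tested members of cluster C. Hoxc13 had 1 count in DMBA+TAM 1. Hoxd3 had 0 to 5 counts, and Hoxd12 had 8 counts, all in DMBA 2, the library with the Hoxb13 and Hoxd13 reads.

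The interaction asks whether the tamoxifen groups differ from their counterparts in the same way with and without DMBA. It was computed as the difference of DMBA+TAM from DMBA minus the difference of TAM long from control. It was higher than 0 in 4 members, Hoxc4, Hoxc5, Hoxc6 and Hoxc8, and lower in 14, where 21.6% and 26.5% of all genes passed. The 14 were 9 of cluster A, Hoxb9 and Hoxb13 of cluster B and Hoxd9, Hoxd10 and Hoxd11 of cluster D. Of these, Hoxa10, Hoxa11, Hoxa13, Hoxd10 and Hoxd11 were at 0 in control. Hoxa11, Hoxd10 and Hoxd11 were at 0 in DMBA+TAM too, so they could only be lower in this contrast. Hoxa6, Hoxa9, Hoxb9, Hoxb13 and Hoxd9 had at most 3 counts per control library, so TAM long could hardly be below control. Hoxc4, Hoxc5, Hoxc6 and Hoxc8 had at most 4 counts per library in DMBA, under what 0 counts still allow in DMBA+TAM. DMBA+TAM could thus hardly be below DMBA in them. The counts of 4 and 14 are therefore descriptions. For Hoxa7, with counts in all libraries, the interaction was -8.12 ± 0.62 on the log2 scale (edgeR adjusted p = 4.15e-06), and for Hoxc4 it was 7.52 ± 0.72 (1.92e-05). With thinned counts 11 members passed. Of the 18 calls, 3 ended without some library: Hoxa2 (edgeR adjusted p = 0.0512 to 0.0584), Hoxb13 (0.0777 to 0.180) and Hoxd9 (0.0593 to 0.131). TAM long and control also differ in the L and S of their titles, which cannot be told apart from tamoxifen here. Marker lists move with this contrast: all 12 epithelial, all 6 smooth muscle and 6 of 7 colon markers were lower in it, like cluster A, and 10 of 12 fibroblast, 4 of 6 immune and all 4 fat and all 4 endothelial markers were higher, like cluster C. Of the 12 small intestine markers 5 were higher and 1 lower, and of the 8 markers of enteric neurons and glia 3 were lower. Their part in it was not tested.

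Genes within and beside the clusters were read from lists of their own. Of 19 named noncoding RNAs of the clusters, 17 were in the table and 8 tested, of which DMBA had 6 higher than control, TAM long 5 and TAM short 1, beside 24.5%, 23.2% and 6.52% of all genes. Hoxa11os, Hottip and Mir196a-1 were at 0 in control and could not be lower. Hoxaas2 and Hoxb5os had 1 to 3 counts per control library, so a lower call could hardly occur, and these counts are descriptions. In DMBA+TAM, 3 of the 8 were lower than in DMBA and 2 lower than in TAM long, near the 29.9% of all genes in either. Hoxa11os, the antisense transcript of Hoxa11, had 158 and 149 counts in DMBA, 91 and 143 in TAM long and 0 elsewhere, at least 44-fold (edgeR adjusted p = 0.000117) and at least 31.3-fold higher (0.000183) than control. Hottip, transcribed beyond Hoxa13, had 60 and 163 in DMBA, 15 and 111 in TAM long and 0 elsewhere, at least 33.8-fold (edgeR adjusted p = 0.0107) and at least 17.4-fold higher (0.0222). The Mir196a-1 locus between Hoxb9 and Hoxb13 had 0 in control and DMBA+TAM, 5 and 11 in TAM short, 89 and 36 in DMBA, and 65 and 56 in TAM long, and was at least 2.79-fold higher in TAM short (edgeR adjusted p = 0.0293). Hoxa11os and Hottip had reads in the same 4 libraries as Hoxa11. Among 9 tested flanking genes, 4 were higher and 1 lower in DMBA and in TAM long. Of all genes, 24.5% were higher and 23.3% lower in DMBA, and 23.2% and 22.8% in TAM long. Evx1, next to Hoxa13, was at least 8.53-fold higher in DMBA (edgeR adjusted p = 0.0155), and at 0 in control it could not be lower. No strand setting of the counting is stated, so sense and antisense reads cannot be told apart.

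Of the cofactors, 8 of 9 were tested, and 4 were higher in DMBA and in TAM long against control, beside 24.5% and 23.2% of all genes. Meis1, a partner that binds DNA together with Hox proteins, had 6.54 and 6.97 normalized CPM in control, 15.2 and 12 in DMBA, 3.72 and 2.64 in TAM short, 11.9 and 16.1 in TAM long, and 7.37 and 11.9 in DMBA+TAM. TAM short lay below both control libraries and the 6 libraries of the other 3 groups lay above them. Meis1 rose by 1.01 ± 0.26 in DMBA (edgeR adjusted p = 0.0105) and 1.05 ± 0.26 in TAM long (0.00924). In TAM short 2 were lower, beside 7.80% of all genes: Meis1 (-1.08 ± 0.3, edgeR adjusted p = 0.0403) and Meis2 (-1.73 ± 0.32, adjusted p = 0.00698). In DMBA+TAM against control 3 were higher and 1 lower, beside 29.0% and 35.3% of all genes.

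Of 28 regulators of Hox genes, which cover Cdx, Polycomb and Trithorax proteins and the retinoic acid pathway, 26 were tested. Against control, DMBA had 6 higher and 7 lower, TAM long 6 higher and 6 lower, TAM short 1 higher and 3 lower, and DMBA+TAM 9 higher and 9 lower. Over all genes the shares higher and lower were 24.5% and 23.3% for DMBA, 23.2% and 22.8% for TAM long, 6.52% and 7.80% for TAM short, and 29.0% and 35.3% for DMBA+TAM. Cdx1, an intestinal activator of Hox genes, had 114 and 90.9 normalized CPM in control, 295 and 289 in DMBA, 161 and 185 in TAM short, 230 and 188 in TAM long, and 0.527 and 0.44 in DMBA+TAM. Cdx2 had 158 and 167 in control, 265 and 183 in DMBA, 173 and 195 in TAM short, 203 and 185 in TAM long, and 0.527 and 0 in DMBA+TAM. Both were present in 8 libraries and at 1 count or less per library in DMBA+TAM, where the 12 epithelial markers summed to 42.7 and 28.1 normalized CPM. Any link between the Cdx and Hox levels was not tested. Cdx1 rose by 1.51 ± 0.15 in DMBA (edgeR adjusted p = 4.06e-05) and 1.02 ± 0.15 in TAM long (0.000429), and Cdx2 in DMBA, 0.46 ± 0.19, did not pass (0.068). Rarg, a retinoic acid receptor, rose by 1.99 ± 0.24 in DMBA (edgeR adjusted p = 0.000138) and 3.59 ± 0.25 in DMBA+TAM (1.02e-06), and the Polycomb subunit Suz12 fell by 1.02 in DMBA (0.000247).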

How the data were processed

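RNA was extracted from intestinal organoids for 10 libraries, mRNA was captured with poly-T beads and libraries were made with the NEBNext Ultra kit. Per the study's methods, the authors mapped reads with TopHat and counted reads per gene with HTSeq. The deposited table holds raw read counts and the FPKM that the authors computed from them, on GRCm38, with columns of the authors' own comparisons (p-values and fold changes), which were not used. No strand setting is stated, so overlapping genes are uncertain. For 53.1% of genes with counts the FPKM used a shorter length than the one listed. Of 47074 lines, 5 were parts of split lines without counts. Of 24541 genes listed without a name, 24109 were named by gene ID from a reference table. The coordinates of all 38 members equal those of GENCODE M21.

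The main test was edgeR's quasi-likelihood test (version 4.0.16, R 4.3.3) after filterByExpr by group and TMM scaling (factors 0.832 to 1.192), with 5 group means in 1 fit and Benjamini-Hochberg adjustment over 16179 genes, threshold 0.05. SE is the log2 fold change divided by the root of the F value. With 2 libraries a group, an exact permutation test cannot go below p = 0.333, so no test of single values was run. Folds against a group at 0 are bounds against 3 counts per library. Where a group held 1 to 3 counts in a library, the ratio of summed counts is given with an exact 95% binomial interval. Alternatives were DESeq2 1.42.0, library-size scaling, no filter, only the groups compared, a replicate block, a minimum absolute log2 fold change of 1, limma 3.58.1 on log2(FPKM + 1) and log2(FPKM + 0.1), counts thinned to 1592366, and leaving out each library. A group left with 1 library is then assumed to vary like the other groups. FPKM rescaled to the listed length was added after the data were seen. Fits were tested on simulated data. Tables were made in Python 3.11.15 with NumPy 2.4.6 and pandas 2.3.3, and figures with matplotlib 3.10.9.

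All members are accounted for: those passing the filter by their values in the libraries (Hoxc9 partly as a range), the others by counts or ranges. Folds are given for members past the threshold in at least 1 comparison, and genes of fixed lists by counts with examples of high level. Members and lists were chosen with earlier results of these data known. No set test was run. Some genes of the lists are not reported here by name.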

Additional observations from a re-analysis of the deposited data

Results flagged for a closer look

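For 18 members the difference of DMBA+TAM from DMBA was unlike that of TAM long from control (the interaction tested by edgeR over all genes), and since TAM long and control also differ in the L and S of their titles, this cannot be read as tamoxifen alone. In cluster C the difference was upward, with an adjusted p of 1.92e-05 for Hoxc4, 7.16e-05 for Hoxc5, 8.89e-06 for Hoxc6 and 4.17e-05 for Hoxc8. In cluster A it was downward, with an edgeR adjusted p of 0.0146 for Hoxa2, 0.00342 for Hoxa3, 0.000239 for Hoxa5, 0.00862 for Hoxa6 and 4.15e-06 for Hoxa7. The posterior members of cluster A had edgeR adjusted p-values of 1.21e-06 (Hoxa9), 1.07e-05 (Hoxa10), 0.000326 (Hoxa11) and 2.22e-05 (Hoxa13). In clusters B and D the downward ones were Hoxb9 (edgeR adjusted p = 6.46e-06), Hoxb13 (0.0358), Hoxd9 (0.0274), Hoxd10 (0.00595) and Hoxd11 (0.00719). Hoxa10, Hoxa11, Hoxa13, Hoxd10 and Hoxd11 were at 0 in control, so the size of their interaction has no fixed value. Hoxa11, Hoxd10 and Hoxd11 were also at 0 in DMBA+TAM, so their interaction could only be downward, and that direction is no result. Hoxa6, Hoxa9, Hoxb9, Hoxb13 and Hoxd9 had at most 3 counts per control library, so TAM long could hardly be lower than control in them. Likewise, Hoxc4, Hoxc5, Hoxc6 and Hoxc8 had at most 4 counts per library in DMBA, so DMBA+TAM could hardly be lower than DMBA in them. The DMBA+TAM libraries hold Epcam at 1.58 and 1.32 normalized CPM, against 1420 to 3080 elsewhere, and the part of this in the difference was not tested.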

How the results depend on the processing

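Over 140 calls of a member in a comparison, no alternative turned a direction, and in the repeats that left out 1 library 509 kept their call and 123 lost it. With thinned counts the calls were 9 in DMBA against control, 11 in TAM long against control, 8 in DMBA+TAM against TAM short, 10 in TAM long against TAM short and 11 in the interaction, with fewer members tested. The direction of 44 of the 140 calls could therefore not be checked with thinned counts. With no filter the calls were 6 in TAM short against control, 24 in DMBA+TAM against DMBA and 19 against TAM long, and with only the groups compared 6 in TAM short against control. In the fits with only the groups compared, 14 of the 140 calls were not tested. Leaving out 1 library gave 14 to 24 calls in DMBA, 14 to 23 in TAM long, 1 to 2 in TAM short and 13 to 13 in DMBA+TAM against control, 11 to 20 in DMBA+TAM against DMBA, 10 to 14 against TAM long, 12 to 14 against TAM short, 14 to 18 in TAM long against TAM short and 15 to 21 in the interaction. The weighted mean paralog number of control was 5.73 with normalized CPM and 5.78 with FPKM from the listed length (chosen after seeing the data), and that of TAM short 7.09 with normalized CPM, where paralogs 9 to 13 made up 23.0%. Library-size scaling moved the median of all genes by up to 0.48 (log2) and ended 3 calls, DESeq2 ended 2, limma 7 (FPKM + 0.1) and 16 (FPKM + 1). The replicate numbers were not treated as pairs in the main fit. Over 10 pairs of groups the correlation of same-numbered deviations was -0.12 to 0.45, and over 0.1 in 1, DMBA with TAM long. In both of these groups library 1 also exceeded library 2 in most of cluster B, so their same-numbered libraries varied together in part. The replicate block ended 1 call, with 17 calls in DMBA+TAM against control. At the depth of DMBA+TAM, members at 0 may still reach 1.58 normalized CPM.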

Other observations

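Gm53, a transcript within cluster B that belongs to none of the lists and was picked after its values were seen, had 0 counts in control and DMBA+TAM, 81 and 174 in TAM short, 571 and 349 in DMBA and 539 and 482 in TAM long. Evx2, beside Hoxd13, had 23 counts in DMBA 2 and 0 in the other 9 libraries.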
